A study of Mus musculus with 15 samples.

Results

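Chl1 and 7 relatives among the neural cell adhesion molecules were followed in whole lungs of C57BL/6 mice through bleomycin injury. The group comprised the L1 family (Chl1, L1cam, Nrcam and Nfasc), the neural cell adhesion molecules Ncam1 and Ncam2, and the contactins Cntn1 and Cntn4, which together made 8 of the 33340 genes counted. Their rows were found by symbol. Chl1 was chosen by its CPM (counts scaled to a common library size) at day 7 against day 0, where it was among the largest rises, and the other 7 entered by family name. The comparison of day 7 with day 0 for Chl1 is therefore a description, and no test is attached to it.

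These molecules are cell surface proteins of the immunoglobulin superfamily that neurons and glia use to adhere, to extend axons and to build myelinated fibres. L1 family members span the membrane and bind ankyrins through a short cytoplasmic tail, while contactins are held at the surface by a lipid anchor and pair with other receptors on the same cell. Ncam proteins can carry polysialic acid, a long sugar chain that weakens adhesion. In the lung such molecules are best known from nerve fibres and their Schwann cells and from neuroendocrine cells, and several are also made by fibroblasts and other non-neural cells.

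RNA-seq of polyadenylated RNA was carried out on lungs of adult male mice at day 0 and at days 7, 14 and 21 after 5 U/kg of bleomycin, which breaks DNA and leads to scarring, was instilled through the trachea. There were 4 libraries each at days 0, 7 and 14 and 3 at day 21, with 15652008 to 18020661 counts per library. Day 0 mice were labelled as untreated, except that the treatment label of day 0 replicate 4 read bleomycin. That library was kept at day 0 by its title, and calls of members that changed without it are named below. Calls of other listed genes were not checked without it. The model has no saline-treated group after day 0, so time, drug and instillation cannot be told apart. Nothing in the labels says that libraries of a day came from separate mice, so p-values measure the spread between these libraries.

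The libraries of a day were not uniform. Transcripts of 16 mitochondrial genes made up 2.28% and 2.31% of the counts in day 0 replicates 1 and 2 but 4.22% and 4.04% in replicates 3 and 4. This mitochondrial share was 2.03% to 2.15% at day 7, 2.10% in day 14 replicate 1 against 3.74% to 4.14% in the other day 14 libraries, and 2.66% to 4.01% at day 21. Among 10 lung markers the summed level, in TMM-scaled CPM, was 54565 to 69692 at day 0 and 11116 to 15746 at day 21, with surfactant protein C the leading gene. Defining markers of lung were thus present in every library.

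The promoters of 2 members are shown because Nrcam rose in every alternative fit and Cntn1 was the member called lower than at day 7. Each sequence is the 250 bases before the RefSeq start on the plus strand of GRCm38.p6, at chr12:44328635-44328884 for Nrcam and chr15:92050915-92051164 for Cntn1, with each CG dinucleotide in capitals.
Nrcam: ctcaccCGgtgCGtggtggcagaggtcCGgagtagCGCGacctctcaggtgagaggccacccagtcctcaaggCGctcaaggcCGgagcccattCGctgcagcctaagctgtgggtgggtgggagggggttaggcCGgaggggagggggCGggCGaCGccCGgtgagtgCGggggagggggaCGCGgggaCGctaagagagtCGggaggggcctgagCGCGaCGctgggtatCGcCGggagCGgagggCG
Cntn1: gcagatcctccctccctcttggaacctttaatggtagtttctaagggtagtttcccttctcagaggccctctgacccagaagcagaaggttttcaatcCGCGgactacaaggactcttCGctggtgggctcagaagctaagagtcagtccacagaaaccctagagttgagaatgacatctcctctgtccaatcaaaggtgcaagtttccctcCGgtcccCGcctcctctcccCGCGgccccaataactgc
The Nrcam stretch held 25 CG dinucleotides and was 72.4% G or C, and the Cntn1 stretch held 7 and was 53.6% G or C. RefSeq windows of 300 bases (250 before and 50 after a start) were found for 7 of the 8 members. Over all 32851 windows the medians were 52.7% G or C and 7 CG dinucleotides. The full windows of Nrcam and Ncam2 (74.0% and 75.7%) and of L1cam (67.0% and 69.3%, for its 2 starts) were rich in G and C, and the Chl1 window (53.7%) lay near the median in G and C but held more CG dinucleotides (13). Cntn1 had windows at 3 starts, with 55.3%, 34.7% and 45.0% G or C, and the stretch shown belongs to the first. Which start is used in lung was not measured. The Chl1 window lies within the first annotated exon of the gene, not before it, so it does not show the sequence upstream. The windows were searched on both strands for CAGAC (SMAD box), TGANTCA (AP-1 site), GGAATG (TEAD site) and TATAAA (the box of some core promoters), none of which contains another. These occurred in 49.6%, 7.8%, 14.7% and 13.6% of all windows. No window of Chl1, Nrcam, L1cam or Ncam2 held any of the 4, whereas both windows of Nfasc and 1 window of Cntn4 held CAGAC, the latter in 2 copies. GGAATG was in a window of Nfasc and a window of Cntn1, TGANTCA in a window of Cntn4 and TATAAA in a window of Cntn1. A match is a stretch of letters and was not tied to any binding measurement.

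Chl1, the close homolog of L1, guides axons and binds integrins and neuropilin. It was close to undetectable at day 0 and ranked among the abundant members of the family at every later day. Its counts at day 0 were 3, 6, 0 and 3, which pooled to 0.183 CPM (95% exact Poisson interval 0.0943 to 0.319, covering counting error only). At day 7 the counts were 434, 616, 313 and 429, at day 14 they were 1148, 363, 288 and 188, and at day 21 they were 576, 779 and 1076. No library after day 0 overlapped a day 0 library, while days 7 and 14 overlapped each other.

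In CPM, Chl1 went from 0.181 ± 0.148 (SD, n = 4) at day 0 to 25.4 ± 7.03 (n = 4) a week later. It was 29.7 ± 25.8 (n = 4) at day 14 and 47.7 ± 14.1 (n = 3) at day 21. The fitted log2 fold changes over day 0 were 7.06 (SE 0.71), 7.29 (SE 0.70) and 7.97 (SE 0.72), which placed Chl1 at position 4, 8 and 7 from the top of the 17457 genes tested. These 3 comparisons share the day 0 libraries, and Chl1 passed the filter on low counts through the later days alone. In a fit that held the mitochondrial share constant the day 7 value was 6.14, and within the libraries of low share (under 2.5%) it was 6.45. Leaving out a library gave 6.66 to 7.59 at day 7, 6.46 to 7.82 at day 14 and 7.56 to 8.49 at day 21.

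Between the later days the order of the Chl1 means was day 7, day 14, day 21. Day 14 minus day 7 was 0.23 on the log2 scale (SE 0.43), within the spread of the libraries. It became -0.58 without day 14 replicate 1, whose 67.8 CPM stood above the 11.3 to 23.1 CPM of the other 3 libraries of that day. Every day 21 library (35.6, 44.3 and 63.2 CPM) lay above every day 7 library (17.2 to 34.3 CPM), a log2 difference of 0.91 (SE 0.46) that is given with no test because the day 7 libraries chose the gene. With the mitochondrial share held constant, the differences from day 7 were 1.30 at day 14 and 2.16 at day 21, likewise a description. The shares at day 7 (2.03% to 2.15%) lay below those at day 21 (2.66% to 4.01%). At day 14 only replicate 1 (2.10%) was within the day 7 range. The values with the share held constant therefore rest on the fitted slope of the covariate. Day 21 against day 14 did not use the day 7 libraries, and its log2 difference of 0.69 (SE 0.46) did not pass the test (edgeR quasi-likelihood test, adjusted p = 0.653). Without day 14 replicate 1 the same difference was 1.48 with an adjusted p of 0.046.

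**Figure D1:**
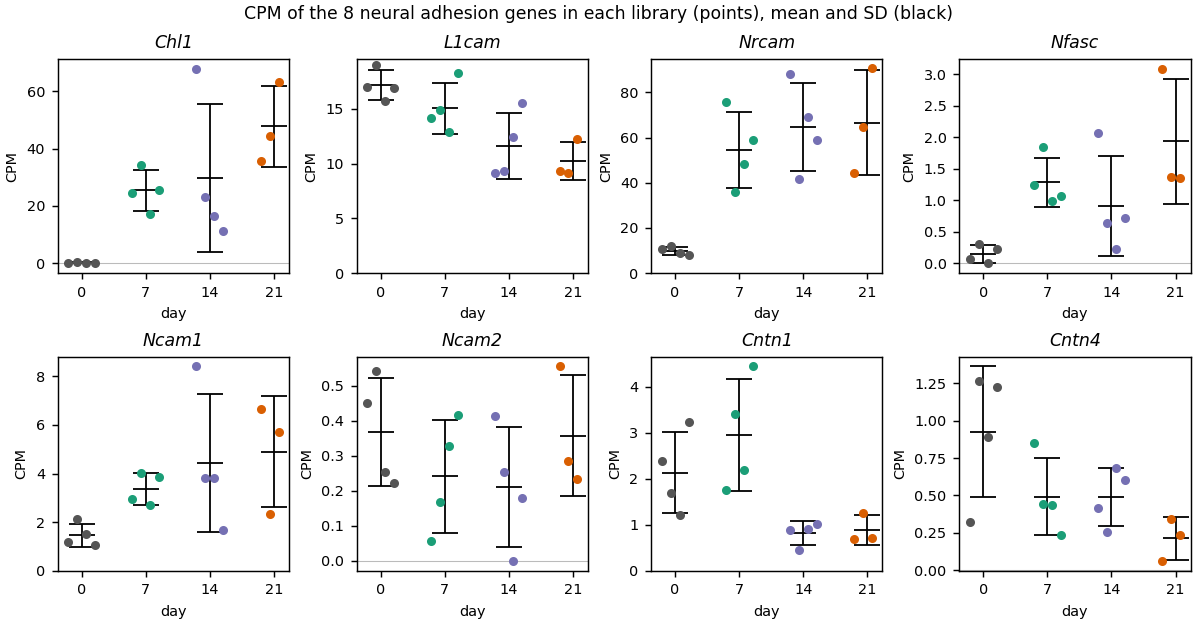
CPM (y axis, a scale of its own in each panel) of the 8 neural adhesion genes by day (x axis), with 1 point per library and the mean and SD in black. Chl1 sits at 0 to 0.362 CPM at day 0 and at 11.3 CPM or more in every later library, Nrcam rises from a low but clear level, L1cam is lower at days 14 and 21 than at day 0, and Cntn1 has its highest mean at day 7 (2.95 CPM) and is lower at days 14 and 21.

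Calls rest on edgeR's quasi-likelihood test over all genes tested. They needed a fold change above 1.5 together with a p below 0.05 after Benjamini-Hochberg adjustment, and 7 of the 8 members passed the filter on low counts. Chl1 is left out of the counts over day 0, since its rise chose it, which leaves 6. At day 7, 2 of them (Nrcam and Nfasc) were called higher, beside 8.78% of all genes tested, and 0 were called lower, beside 7.36%. At day 14, 3 (Nrcam, Nfasc and Ncam1) were called higher, beside 12.0% of all genes, and 1 (Cntn1) lower, beside 11.2%. At day 21, 3 (Nrcam, Nfasc and Ncam1) were called higher, beside 12.4%, and 3 (L1cam, Cntn1 and Cntn4) lower, beside 10.1%. Nfasc entered the tested genes through the groups in which it is high, so these counts describe the members and support nothing on their own.

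**Figure D2:**
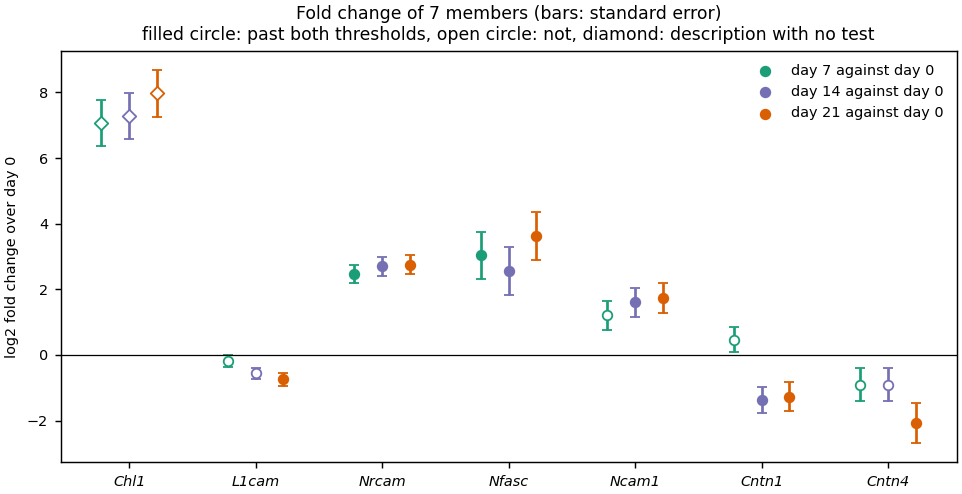
Log2 fold change over day 0 (y axis) of the 7 members tested (x axis) at days 7, 14 and 21, with bars of 1 standard error. Filled circles pass both thresholds and open circles do not, diamonds mark Chl1 as a description with no test, and the values run from 7.97 for Chl1 to -2.08 for Cntn4 at day 21.

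Nrcam, which clusters sodium channels at the nodes of myelinated axons and guides growing fibres, was higher in every library after day 0. Its counts were 167, 199, 140 and 145 at day 0, then 1339, 645, 877 and 989 at day 7. At day 14 they were 1495, 654, 1212 and 976, and at day 21 they were 716, 1137 and 1542. The later days overlapped each other, and none overlapped day 0.

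Nrcam averaged 9.94 ± 1.79 CPM (SD, n = 4) at day 0, 54.6 ± 16.9 (n = 4) at day 7, 64.5 ± 19.5 (n = 4) at day 14 and 66.5 ± 23.2 (n = 3) at day 21. In edgeR's test the log2 fold change over day 0 was 2.46 (SE 0.28, adjusted p = 4.82e-05) at day 7, 2.70 (SE 0.28, adjusted p = 6.89e-06) at day 14 and 2.74 (SE 0.29, adjusted p = 1.24e-05) at day 21. No alternative fit ended these calls. The log2 difference of day 21 from day 14 was 0.04 (SE 0.28), and that from day 7 was 0.28 (SE 0.28), neither past the test.

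Nfasc encodes neurofascin, which anchors the axon initial segment and the flanks of the node of Ranvier. It was scarce throughout. Its counts were 1, 5, 0 and 4 at day 0, 22, 33, 18 and 18 at day 7, 35, 10, 4 and 12 at day 14, and 50, 24 and 23 at day 21. Days 7 and 21 lay wholly above day 0, and 1 day 14 library fell within the day 0 range.

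The fitted log2 differences of Nfasc from day 0 were 3.03 (SE 0.72) at day 7, 2.54 (SE 0.73) at day 14 and 3.62 (SE 0.74) at day 21. Nfasc passed the filter on low counts through the later days, so these values are a description. In the edgeR fit with no filter they were 3.02 (adjusted p = 0.00215), 2.52 (adjusted p = 0.00771) and 3.57 (adjusted p = 0.000295). The size varied with the libraries and the fit: the day 14 value was 1.74 without day 14 replicate 1 and 2.09 within the libraries of high mitochondrial share (over 3.5%), and the day 7 value was 2.42 when that share was held constant, none of which passed both thresholds (adjusted p = 0.0751, 0.188 and 0.0675). Within the libraries of low share the day 7 value was 2.72.

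L1cam, the founding member of the L1 family, supports axon growth and is also carried by some epithelial and immune cells. It was the most abundant member per length at day 0. Its mean was lower at each later time, and only the day 21 fall was called. The counts were 263, 315, 248 and 304 at day 0, 250, 267, 235 and 308 at day 7, 155, 147, 217 and 258 at day 14, and 151, 161 and 209 at day 21. Scaled to CPM, every library of days 14 and 21 (9.15 to 15.6 CPM) lay below every day 0 library (15.7 CPM or more), while day 7 (12.9 to 18.3 CPM) overlapped day 0.

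L1cam fell by 0.74 on the log2 scale at day 21 (SE 0.19, adjusted p = 0.0092, edgeR), a call that every alternative fit kept. The day 14 value of -0.56 (SE 0.18, adjusted p = 0.0227) missed the fold threshold, and it passed in 10 of 18 alternatives, among them the fit without day 0 replicate 4 (-0.59, adjusted p = 0.0379). The day 7 value was -0.19 (SE 0.17, adjusted p = 0.452). L1cam shares exon sequence on the same strand with Arhgap4, a GTPase-activating protein gene that lies beside it on chromosome X, so reads of the shared part are uncertain. Arhgap4 had log2 fold changes of -0.73, -0.68 and -1.02 (adjusted p = 0.0823, 0.0901 and 0.0275) at the 3 times.

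Ncam1, the main carrier of polysialic acid, is found on neurons, glia, neuroendocrine cells and natural killer cells. Its counts were 18, 35, 24 and 19 at day 0, 52, 72, 49 and 65 at day 7, 143, 60, 67 and 28 at day 14, and 108, 41 and 97 at day 21. All libraries of days 7 and 21 were above day 0, and 1 day 14 library was not.

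The log2 fold change of Ncam1 over day 0 was 1.20 (SE 0.44, adjusted p = 0.0547) at day 7, which edgeR's test did not pass, and which passed in 4 of 18 alternatives. Ncam1 rose by 1.60 (SE 0.44, adjusted p = 0.0109) at day 14 and by 1.74 (SE 0.46, adjusted p = 0.01) at day 21 on the log2 scale. The day 14 call ended without day 14 replicate 1 (1.06, adjusted p = 0.0534) and within the libraries of high mitochondrial share (1.26, adjusted p = 0.0966). The day 21 call ended without day 21 replicate 1 (1.42, adjusted p = 0.0565).

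Ncam2, a relative of Ncam1 best known from the olfactory system, had 0 to 9 counts per library and 73 in all, and did not pass the filter on low counts. The means were 0.368 ± 0.155 CPM at day 0 and 0.242 ± 0.161 at day 7, then 0.212 ± 0.171 at day 14 and 0.359 ± 0.173 at day 21. The days overlapped, and in a fit with no filter the log2 differences from day 0 were -0.61 (SE 0.72), -0.80 (SE 0.73) and -0.08 (SE 0.75), none past the test. No change in Ncam2 was detected at these counts.

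Cntn1, a contactin that helps build the junctions beside the node of Ranvier and activates Notch, was lower from day 14 on. Its counts were 37, 28, 19 and 58 at day 0 and 31, 61, 40 and 75 at day 7, then 15, 7, 16 and 17 at day 14 and 11, 22 and 12 at day 21. Days 0 and 7 overlapped, every day 14 library was below both, and day 21 lay below day 7 but reached into the day 0 range.

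Cntn1 averaged 2.13 ± 0.882 CPM at day 0 and 2.95 ± 1.22 at day 7, then 0.818 ± 0.255 at day 14 and 0.879 ± 0.324 at day 21. In edgeR's test day 7 differed from day 0 by a log2 value of 0.46 (SE 0.37, adjusted p = 0.381), not past the threshold. Cntn1 fell by 1.37 on the log2 scale at day 14 (SE 0.40, adjusted p = 0.0157), and by 1.27 at day 21 (SE 0.44, adjusted p = 0.0381). The day 14 call ended without day 0 replicate 4 (-1.11, adjusted p = 0.0577) and within the libraries of high mitochondrial share (-1.49, adjusted p = 0.0964). The day 21 call ended in 7 of 16 alternatives, among them the fits without day 0 replicate 1 (-1.25, adjusted p = 0.0675), day 0 replicate 4 (-1.02, adjusted p = 0.107), day 21 replicate 1 (-1.15, adjusted p = 0.115) and day 21 replicate 3 (-1.18, adjusted p = 0.11).

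Against day 7, Cntn1 was the 1 member called lower at day 14, beside 3.23% of all genes tested called lower, and the 1 called lower at day 21, beside 4.34%. It fell by 1.84 on the log2 scale from day 7 to day 14 (SE 0.40, adjusted p = 0.0169, edgeR) and by 1.73 from day 7 to day 21 (SE 0.44, adjusted p = 0.0197). The first of these ended without day 7 replicate 4 (-1.57, adjusted p = 0.0563) or day 14 replicate 2 (-1.64, adjusted p = 0.0567), and with the mitochondrial share held constant (-1.81, adjusted p = 0.102). The second ended without day 7 replicate 4 (-1.47, adjusted p = 0.0535), day 21 replicate 1 (-1.60, adjusted p = 0.0715) or day 21 replicate 3 (-1.62, adjusted p = 0.0508), and with that share held constant (-1.71, adjusted p = 0.0725). No member was called between days 21 and 14, where edgeR called 0% of all genes, 1714 had an unadjusted p under 0.05 and DESeq2 called 106.

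Cntn4, a contactin that guides olfactory and retinal axons, was scarce and was lower at day 21. Its counts were 5, 21, 14 and 22 at day 0, 15, 8, 8 and 4 at day 7, 7, 4, 12 and 10 at day 14, and 1, 6 and 4 at day 21. Day 0 replicate 1, with 5 counts, fell among the later libraries, so the days overlapped. In edgeR's test Cntn4 fell by 2.08 on the log2 scale at day 21 (SE 0.62, adjusted p = 0.019), a call that ended without day 21 replicate 1 (-1.70, adjusted p = 0.076). The values of -0.90 at day 7 (SE 0.50, adjusted p = 0.201) and -0.91 at day 14 (SE 0.51, adjusted p = 0.183) did not pass.

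Levels of different members were compared as CPM per kb of annotated exon. At day 0 the order of the means was L1cam (2.34 ± 0.186), Nrcam (0.744 ± 0.134), Cntn1 (0.226 ± 0.0935), Ncam1 (0.169 ± 0.0550), Cntn4 (0.109 ± 0.0515), Ncam2 (0.0325 ± 0.0137), Chl1 (0.0147 ± 0.0121) and Nfasc (0.0104 ± 0.00985). Only the steps around L1cam and Nrcam and that from Cntn4 to Ncam2 exceeded the summed SDs of the neighbours, and these orders are descriptions without a test. At day 21 the order began with Nrcam (4.98 ± 1.74), Chl1 (3.88 ± 1.15), L1cam (1.40 ± 0.239) and Ncam1 (0.566 ± 0.263), and Nrcam and Chl1 lay within each other's spread.

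The summed level of the 8 genes per kb was 3.64 ± 0.383 at day 0 and 9.08 ± 1.34 at day 7, then 9.56 ± 3.49 at day 14 and 11.1 ± 3.03 at day 21. L1cam made up 64.3% ± 1.62 of that sum at day 0 and 12.8% ± 1.72 at day 21. The share of Nrcam went from 20.4% ± 2.41 to 44.2% ± 4.91, and that of Chl1 from 0.382% ± 0.292 to 34.8% ± 0.973. In the same order the 3 genes held 22.7%, 44.7% and 22.9% at day 7, and 18.2% ± 7.53, 51.2% ± 7.01 and 23.0% ± 11.9 at day 14. Chl1 and L1cam overlapped at days 7 and 14. The sums and shares take in the Chl1 values that chose the gene, so they are a description with no test.

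**Figure D3:**
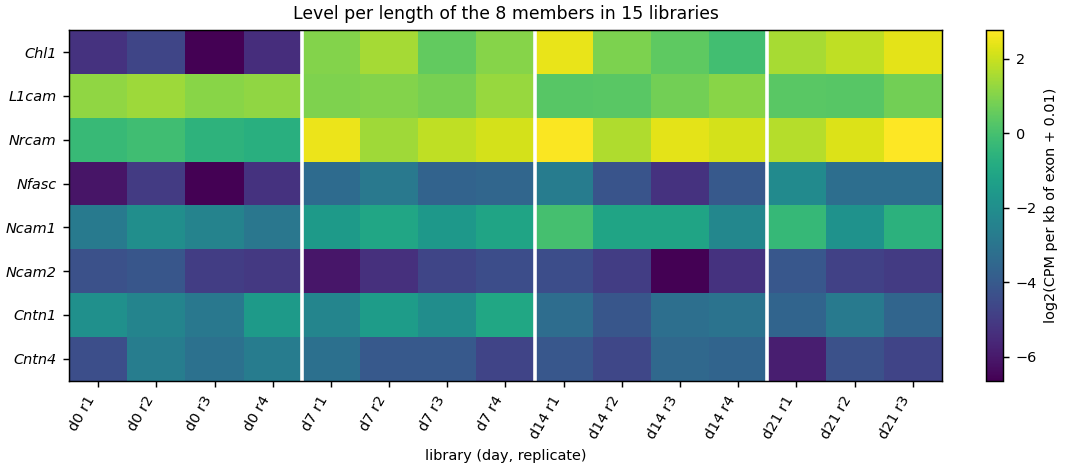
Level of the 8 members (rows) in the 15 libraries (columns, day and replicate) as log2 of CPM per kb of exon plus 0.01, with brighter colours for higher levels and white lines between days. L1cam is the brightest row at day 0, at a mean of 2.34 CPM per kb, and Nrcam and Chl1 are the brightest at day 21, at means of 4.98 and 3.88.

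Most members are long genes. The spans in the GENCODE M21 annotation of GRCm38 were 239.6 kb for Chl1, 42.3 kb for L1cam, 273.1 kb for Nrcam, 177.1 kb for Nfasc, 296.8 kb for Ncam1, 426.1 kb for Ncam2, 290.8 kb for Cntn1 and 1022 kb for Cntn4, against a median of 24.3 kb over 14869 tested protein-coding genes. Chl1 lies at chr6:103510586-103750211 on the plus strand, in a cluster with contactin genes. The next protein-coding genes of the count table were Cntn3 on one side, 937.5 kb away, and Cntn6 on the other, 742.6 kb away, followed by Cntn4. Cntn3 had 10 counts and Cntn6 had 41 in the 15 libraries together, and neither passed the filter on low counts. Past Cntn4, the broadly expressed genes Trnt1 and Crbn were not called at any time. Il5ra, which lies between Cntn4 and Trnt1, was called lower at day 14, and Cntn4 at day 21.

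Relatives and partners were read from lists of genes that are given by counts, beside the medians over all genes, which were 0.01 to 0.02 on the log2 scale at the 3 times against day 0. The shares of all tested genes called, beside which each list count is to be read, were 8.78% higher and 7.36% lower at day 7, 12.0% and 11.2% at day 14, and 12.4% and 10.1% at day 21. Among 21 tested immunoglobulin-superfamily adhesion molecules of neurons outside the family, 4 were called higher and 0 lower at day 7, 6 and 2 at day 14, and 6 and 2 at day 21, with median log2 fold changes of 0.28, 0.16 and 0.35. The risers included Dscaml1, a self-avoidance receptor (log2 fold changes of 2.00, 2.12 and 2.64 at the 3 times). It had 2 to 11 counts at day 0 and passed the filter through the later days, and in the edgeR fit with no filter the values were 1.99, 2.10 and 2.60 (adjusted p = 0.00292, 0.00103 and 0.000143). Of 139 calls of listed genes over day 0, 137 were also called with no filter, and the exceptions were Adam17 at day 7 (0.57) and Mag at day 14 (0.92, adjusted p = 0.0686). With no filter 21 calls were added, 13 of them higher, and 9 of the 21 were of genes that the filter had left out (Cntnap2, Cntn2, Dscam, Lsamp and Cdh19). The list counts given here are those with the filter. Ntm, which encodes the lipid-anchored neurotrimin, rose by 1.49, 2.46 and 2.44, and its relative Opcml by 1.68, 2.43 and 2.07. Another lipid-anchored relative, Negr1, had -0.71 at day 7 (not past the test) and fell by 1.54 at day 14 and by 2.37 at day 21 on the log2 scale. In CPM, Dscaml1 went from 0.343 ± 0.209 at day 0 to 2.21 ± 0.797 at day 21, and Negr1 from 7.62 ± 0.500 to 1.46 ± 0.704.

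The 4 other contactins in the table (Cntn2, Cntn3, Cntn5 and Cntn6) did not pass the filter on low counts. Of the 6 contactin-associated proteins present, 1 (Cntnap1) passed that filter, and its log2 fold changes of -0.57, -0.27 and -0.35 did not pass the test. In the edgeR fit with no filter, Cntnap2 was called higher at each time (adjusted p = 0.00481, 0.00642 and 0.0281), with 0 counts in every day 0 library, 5 to 8 at day 7, 0 to 13 at day 14 and 1 to 6 at day 21. Cntn2 was called higher in that fit at days 14 and 21 (adjusted p = 0.000593 and 0.00477), with 0 to 1 counts at day 0 and 4 to 15 and 4 to 9 at those days.

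Extracellular partners and co-receptors of the family moved in both directions. Of 31 tested, 4 were called higher and 0 lower at day 7, 9 and 6 at day 14, and 10 and 3 at day 21, with median log2 fold changes of 0.35, 0.13 and 0.29. Tnc, the matrix protein tenascin-C that binds contactins, rose from 9.84 ± 2.87 CPM at day 0 to 219 ± 44.5 at day 7 and 378 ± 200 at day 21, with log2 fold changes of 4.47, 5.26 and 5.26 at the 3 times. Versican (Vcan) rose by 1.83, 1.23 and 1.40, and the integrin subunit gene Itgav by 0.98, 1.12 and 1.16. Pleiotrophin (Ptn) rose by 1.80 at day 14 and 2.26 at day 21. The brain proteoglycan gene Bcan fell by 1.80 at day 14 and by 4.17 at day 21 on the log2 scale, from 8.53 ± 0.662 CPM at day 0 to 0.461 ± 0.463 at day 21. All these calls passed edgeR's test across all genes.

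The list of cytoplasmic linkers and signalling partners, which holds ankyrins, spectrins and other cytoskeletal linkers beside kinases and trafficking proteins, had 1 call among 17 genes tested at 3 times, to which the fit with no filter added Ank3 at day 14 (-0.66) and Ank2 at day 21 (1.10). That gene, Ank3 (ankyrin-G), which ties L1 family tails to the spectrin skeleton, fell by 1.21 on the log2 scale at day 21 (SE 0.32, adjusted p = 0.00939, edgeR), from 87.5 ± 28.2 CPM at day 0 to 37.8 ± 8.81. The median log2 fold changes of that list were 0.01, -0.06 and -0.14. The 2 polysialyltransferase genes tested, which build the sugar chain on Ncam1, had medians of -0.10, -0.55 and -0.55, and 0 were called against day 0 with the filter, while St8sia2 was called lower at day 14 without it (-0.66, adjusted p = 0.0381, edgeR).

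A list of proteases that cut the outer part of L1 family proteins from the surface also held the plasminogen activator genes Plau and Plat. Its tested genes were called higher in 2 of 8 cases at day 7, 5 of 8 at day 14 and 4 of 8 at day 21 (beside 8.78%, 12.0% and 12.4% of all genes). There were 0 called lower, and the medians were 0.56, 0.80 and 0.74 on the log2 scale. Plau, the urokinase that activates plasmin, rose by 2.02, 2.34 and 2.62, from 55 to 144 counts per library at day 0 to 393 to 851 at day 21. Adam8, which can cut Chl1, had 0.65 at day 7 (adjusted p = 0.174) and rose by 1.44 at day 14 and 1.91 at day 21 (adjusted p = 0.00474 and 0.00116, edgeR). Adam17 rose by 0.59 at day 7, and Pcsk5, a protease of the secretory pathway, by 1.11 at day 14 and 1.53 at day 21.

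Since the members mark several cell types, lists of markers of those cells were read in the same libraries, beside the same shares of all genes (higher and lower, 8.78% and 7.36% at day 7, 12.0% and 11.2% at day 14, 12.4% and 10.1% at day 21). In bulk tissue, fewer cells of a type and less RNA per cell cannot be told apart. Of 11 tested Schwann cell markers, 2 were called higher and 0 lower at day 7, 1 and 2 at day 14, and 2 and 1 at day 21. Their summed level was 780 to 932 CPM at day 0, 693 to 789 at day 7, 521 to 810 at day 14 and 481 to 665 at day 21, and 31.8% of it on average came from Prx, which lung endothelium also makes. Sox10, the defining transcription factor of the lineage, had at most 5 counts in any library and 0 in all 4 day 14 libraries, and Foxd3 had at most 3. S100b, a calcium-binding glial protein gene, rose at day 21 by a log2 fold change of 1.90 (adjusted p = 0.0166, edgeR), Ngfr by 1.93 at day 7 (adjusted p = 0.012), and Mal, also made by epithelium, by 1.03, 1.16 and 1.27 at the 3 times. Erbb3 fell by 0.69 and by 0.99 on the log2 scale at days 14 and 21.

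Of 6 tested neuron markers, 1 was called higher and 2 lower at day 7, 2 and 2 at day 14, and 2 and 1 at day 21. The summed level was 59.4 to 90.3 CPM at day 0, 38.0 to 53.2 at day 7, 38.1 to 88.4 at day 14 and 49.4 to 54.2 at day 21, and Stmn2 made up 73.6% of it on average. Tubb3, a tubulin of neurons that other growing cells also make, rose from 0.330 ± 0.145 CPM at day 0 to 4.49 ± 1.28, 5.49 ± 2.63 and 5.96 ± 1.32, log2 fold changes of 3.72, 4.01 and 4.13. Prph, a filament of peripheral neurons, was 0.397 ± 0.137 CPM at day 0 and 0.504 to 0.555 on average later, with no call. Stmn2, a neuronal tubulin-binding protein gene, fell at each time (log2 -0.96, -0.76 and -0.98), as did the neuronal nuclear protein gene Rbfox3 at days 7 and 14 (-1.72 and -1.95), while Uchl1 rose by 1.26 at day 14 and 1.29 at day 21. Nefl and Elavl3 had at most 3 counts in every library.

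Of 8 tested markers of pulmonary neuroendocrine cells, 0 were called at day 7 and 1, Grp, was called higher at days 14 and 21 (log2 1.85 and 1.95, adjusted p = 0.00178 and 0.00197, edgeR). The summed level was 13.6 to 18.1 CPM at day 0, 14.0 to 20.0 at day 7, 13.5 to 29.4 at day 14 and 23.4 to 32.1 at day 21. The neuropeptide gene Calca was 2.92 ± 0.728 CPM at day 0 and 8.74 ± 6.43 CPM at day 21, with no call in the fit with the filter and a call at day 21 without it (log2 1.53, adjusted p = 0.0253, edgeR). Nmu had at most 3 counts in every library.

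Of 15 tested activated fibroblast markers, 9 were called higher at day 7, 12 at day 14 and 13 at day 21 (beside 8.78%, 12.0% and 12.4% of all genes), and 0 lower, with median log2 fold changes of 1.47, 2.74 and 2.96. The summed level was 1691 to 2263 CPM at day 0, 6744 to 8158 at day 7, 7587 to 24026 at day 14 and 9754 to 18268 at day 21, and none of the list was at 0 throughout. Day 14 replicate 1, the library with the most Chl1, also had the highest sum of this list. Cthrc1, a marker of collagen-making fibroblasts in scarred lung, was 3.18 ± 0.736 CPM at day 0 and 27.4 ± 16.8 at day 21, and it was not called at day 7 (log2 1.16, adjusted p = 0.151). Postn, the matrix protein periostin, likewise rose at days 14 and 21 (0.78 and 1.03). Col1a1, a chain of collagen I, rose by 2.20, 2.87 and 2.99, and Acta2, smooth muscle actin, by 1.46, 1.87 and 1.74. Tnc is on this list and on that of partners. Spp1 (3.14, 5.15 and 5.55) and Lrrc15 (3.01, 5.44 and 5.48) also rose. Scar-associated macrophages also make Spp1, which is part of the summed level, so that sum is not of fibroblasts alone. The part of these cell types in the level of any member was not tested.

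Of the remaining lists, smooth muscle and pericyte markers (10 tested) had 1 to 3 genes called higher (Cspg4, Actg2 and Des) and 1 lower (Higd1b or Cox4i2) at each time. Cardiac muscle markers (7 tested) had 2 genes called lower at day 14 (Myh6 and Ryr2), and their summed level was 665 CPM in day 7 replicate 4, 778 in day 21 replicate 1, and 293 and 205 in day 0 replicates 3 and 4, against 21.1 to 61.4 in the others. Day 7 replicate 4 had the highest Cntn1 of its day (4.45 CPM), and day 21 replicate 1 had the highest Nfasc and Ncam1 (3.09 and 6.67 CPM) and the lowest Cntn4 (0.0618 CPM). The calls of Cntn1 against day 7, and those of Ncam1 and Cntn4 at day 21, that end without these libraries are given above with their values. Of 10 lung tissue markers, 0 were higher and 2, 6 and 5 were lower at the 3 times. Scgb1a1, a secretory protein of club cells, fell furthest of that list at each time (log2 -1.59, -2.47 and -3.17 at the 3 times).

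**Figure D4:**
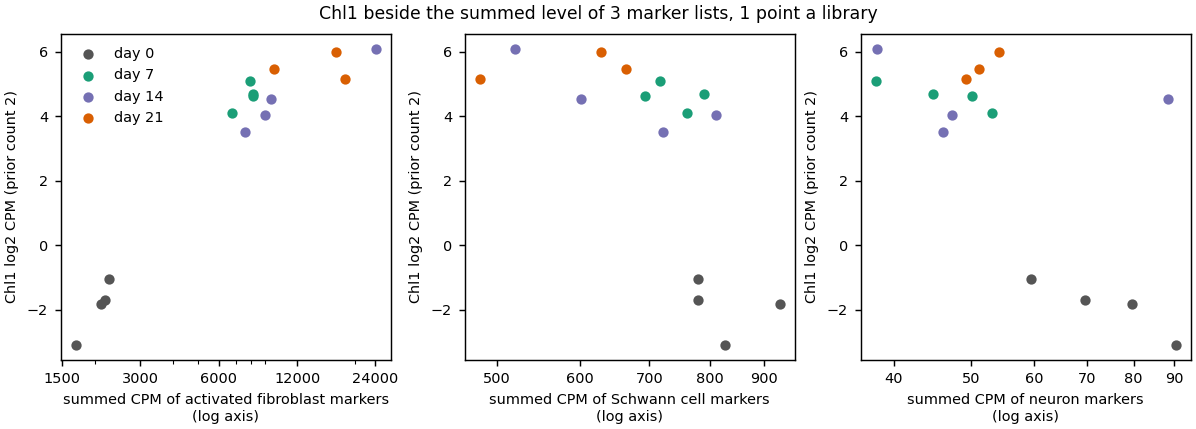
Log2 CPM of Chl1 (y axis, prior count 2) against the summed CPM of activated fibroblast, Schwann cell and neuron markers (x axes, log scale), with 1 point per library coloured by day. The day 0 libraries sit apart at the lowest fibroblast sums (1691 to 2263 CPM), and they lie at or among the highest Schwann cell and neuron sums.

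The genes most like Chl1 were ranked by Pearson's r of log2 CPM over the 15 libraries, as a description with no test, among genes with a mean of at least 1 CPM. The 10 closest were Tubb3 (r = 0.984), Adamts4 (0.984), Brinp1 (0.983), Timp1 (0.983), Tfpi2 (0.981), Saa3 (0.980), Slc39a1 (0.974), Psat1 (0.974), Col3a1 (0.974) and Fbn1 (0.971). The low day 0 libraries shape this ranking, the points share library and depth, and a ranking by Spearman's rho shared 0 of the 10. After each day mean was subtracted the closest were P4ha3 (0.937), a collagen-modifying enzyme gene, Ctr9 (0.933), Pabpc1 (0.932), Sec23ip (0.930) and Psmd11 (0.927).

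Within the family, Chl1 ran with Nrcam (r = 0.951), Nfasc (0.881) and Ncam1 (0.810) over the 15 libraries, and with Nfasc (0.672), Ncam1 (0.621) and Nrcam (0.396) after the day means were subtracted. Its r with L1cam was -0.647, and -0.204 once the day means were removed. Day 14 replicate 1 was the highest library of its day for Chl1, Nfasc, Ncam1 and Nrcam (67.8, 2.07, 8.44 and 88.2 CPM). The correlations were not computed without that library. The closest genes to the other members were Thbs4 and Igf1 for Nrcam (0.970 and 0.967), Syp, Pomgnt2 and Tgtp2 for L1cam (0.955, 0.955 and 0.936), and Mr1, Gas7 and Hs6st1 for Nfasc (0.952, 0.945 and 0.941). Ncam1 was closest to Gm6560, Tpm2 and Prrx1 (0.938, 0.933 and 0.932), Cntn1 to C7, Srebf2 and Dctn1 (0.924, 0.897 and 0.894), and Cntn4 to Zfp286, Slc25a23 and Pgghg (0.861, 0.793 and 0.786).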

How the data were processed

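Polyadenylated RNA of 15 whole-lung libraries was analysed. Per the study's methods and processing notes, the authors trimmed reads with TrimGalore, aligned them to mm10 (GRCm38) with HISAT2 2.1.0, discarded reads with several alignments and counted the rest per Ensembl gene with HTSeq 0.6.0. The deposited values are raw counts with no normalization. The annotation release and strand setting are not given in the sources used here, so reads of overlapping and antisense genes are uncertain. Reads shared by near-identical copies were dropped by that counting.

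GENCODE M21 matched 33267 of 33340 gene identifiers, and 450 genes had no count. Day and replicate came from the sample titles, which give more libraries per day than the series text. Totals of 15652008 to 18020661 counts set the precision. Intervals cover counting error, as PCR duplicates were not told apart.

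Genes were filtered with filterByExpr, scaled by TMM and tested with glmQLFit and glmQLFTest (edgeR 4.0.16, R 4.3.3) on a design of day alone fitted to all libraries, adjusted over 17457 genes. Calls followed the study's thresholds, a fold change above 1.5 and an adjusted p below 0.05. Adjusted p-values in the text are from this fit unless another is named. Log2 CPM used a prior count of 2. The script was tested on simulated data. Alternatives were DESeq2 1.42.0 (the authors used 1.40.2), RLE factors, total-count scaling, removal of the filter, a filter at a mean of 1 CPM, only the 2 groups compared, a replicate block, the log2 mitochondrial share as covariate, limma 3.58.1 voom, no fold threshold and leaving out each library. Fits within libraries of a mitochondrial share under 2.5% (day 7) or over 3.5% (day 14) were chosen after seeing the data. The day 7 shares lay below those of every day 0 and day 21 library, so contrasts with day 7 under the covariate rest on its fitted slope. Members and gene lists were chosen with earlier results of these data known. Besides the members, the text names up to 3 called genes of each list and time with the largest change, 12 fixed markers and the genes most like each member, except a few genes that are not reported here. Genes given with neighbours, overlaps or as the leading or scarcest of a list, and the smaller risers and fallers named beside them, were chosen after their values were seen. Replicates of a day were compared and none were duplicates.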

Additional observations from a re-analysis of the deposited data

How the results depend on the processing

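Of 697 refits of single members, 638 kept the direction and the side of the threshold, 23 lost a call, 18 gained one and 18 changed sign without a call. The number of members called, here with Chl1 counted, stayed within 1.5 times its value under other alternatives, except as follows. For day 14 against day 0 it was 2 within the libraries of high mitochondrial share and 3 (without day 14 replicate 1) to 6 when a library was left out. For day 14 against day 7 it was 0 with the mitochondrial covariate and 0 to 1 when a library was left out. For day 21 against day 7 it was 2 with only those groups fitted, where the count took in Chl1 (0.91), whose difference from day 7 is a description only, and 0 to 1 when a library was left out. On leaving out a library it was 3 to 4 for day 7 and 4 (without day 21 replicate 1) to 7 for day 21 against day 0, and 0 to 1 (Chl1, without day 14 replicate 1) for day 21 against day 14. The 10 genes most like Chl1 shared 0 with a ranking by Spearman's rho and 9 with a minimum of 5 CPM.

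None of the differences that changed sign was called. Their values in the fit reported include -0.49 for Nfasc, 0.40 for Ncam1 and 0.23 for Chl1 (day 14 against day 7). For day 14 against day 7, Cntn4 was 0.0062 (DESeq2), 0.0064 (RLE factors) and 0.042 (voom), Nfasc 0.11 (mitochondrial covariate) and Chl1 -0.081 (voom). Leaving out a library gave -0.23 to 0.38 for Cntn4, -0.58 to 0.50 for Chl1 and -0.12 to 0.67 for Ncam1. For day 21 against day 7 it gave -0.029 to 0.49 for Nrcam. For day 21 against day 14 it gave -0.26 to 0.26 for Nrcam, -0.25 to 0.25 for Cntn1 and -0.16 to 0.64 for Ncam1. Causes were not tested.

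Over all genes, 2818 were called at day 7 against day 0, 1269 with the mitochondrial covariate and 4365 with no fold threshold. Day 14 against day 7 gave 1048, 1638 with DESeq2, 218 with the covariate and 340 to 1300 on leaving out a library. Day 21 against day 7 gave 1665, 942 with the covariate and 966 to 1822 on leaving out a library. Day 21 against day 14 gave 0, 106 with DESeq2, 37 with no filter and 0 to 127 on leaving out a library.

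Whether replicate numbers pair the libraries was not settled, as the check had no reference value. Correlations of same-numbered libraries' deviations ran from -0.244 to 0.397, and 7 of 15 libraries correlated best with their own number. With the replicate block, Cntn1 at day 21 was -1.04 (adjusted p = 0.072) and L1cam at day 14 was -0.59 (adjusted p = 0.0137), and no other member's call changed. Ncam2, Nfasc and Cntn4 had few counts per library, and the effect of depth on their results was not tested.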
